A study of Homo sapiens with 8 samples.

Results

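*CD69*, *TSPAN18* and *TPSG1* are 3 of the 13307 genes in the table of normalized counts from Panc-1 cells, selected on their normalized counts, which were among those that fell furthest after depletion of PHF13, a PHD finger protein that binds methylated histone tails. Panc-1 is an established human cell line from a carcinoma of the pancreatic duct, and the study asked how PHF13 acts on the response of these cells to TGFβ, a cytokine that drives epithelial to mesenchymal transition (EMT). All cells carried a transfected siRNA: siNC cells (siControl in the labels) received a non-targeting control and siPHF13 cells received siRNAs against PHF13. The siNC + TGFβ and siPHF13 + TGFβ cells were transfected in the same way and then kept for 48 h with 10 ng/ml TGFβ. Each of the 4 groups held 2 mRNA-seq libraries of this single line. The study calls them duplicates without saying that they came from separate cultures, so that p-values measure only the spread between these libraries, which may be technical.

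The 3 genes encode proteins of the cell surface from unrelated families. *CD69* encodes a C-type lectin receptor that lymphocytes place on their surface early in activation and that keeps the sphingosine-1-phosphate (S1P) receptor S1PR1 from the surface. *TSPAN18* encodes a tetraspanin, one of a family of membrane proteins that gather partner proteins in the membrane, and it is known to bind the calcium channel protein ORAI1. *TPSG1* encodes a membrane-anchored serine protease of the tryptase group, known from mast cells. A fall in the mRNA of a bulk sample cannot tell fewer cells that use a gene from less RNA of it in each cell.

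*CD69* lies on the minus strand at chr12:9905082-9913497 of GRCh37 (hg19, the build of the deposited counts), with 5 exons in its canonical transcript. *TSPAN18* lies on the plus strand at chr11:44748015-44953974, where 10 exons spread over 205960 bp. *TPSG1* is a compact gene of 6 exons within 3618 bp on the minus strand at chr16:1271651-1275268. The 250 bases upstream of the *TPSG1* start are shown as the one promoter window that was matched to the 3 genes (RefSeq, GRCh38.p14, chr16:1225269-1225518, minus strand, written 5′ to 3′ in the direction of transcription, with the motif matches in capitals):
TPSG1: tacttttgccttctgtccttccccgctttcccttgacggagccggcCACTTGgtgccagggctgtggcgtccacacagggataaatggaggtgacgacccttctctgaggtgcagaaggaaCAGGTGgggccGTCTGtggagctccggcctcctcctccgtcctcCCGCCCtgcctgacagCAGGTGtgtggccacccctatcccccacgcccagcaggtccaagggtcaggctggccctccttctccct
The capitals mark 3 E-boxes (CANNTG), 1 SMAD box (CAGAC, here on the opposite strand) and 1 GC box (GGGCGG, here on the opposite strand). Both strands were searched, and none of these matches overlapped another. Of 35116 promoter windows of the same table, 61.8% held an E-box, 38.0% a SMAD box and 42.6% a GC box. The AP-1 site TGANTCA, held by 6.57% of the windows, had no match among these letters. These matches are common and say nothing on whether a factor binds there.

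The siRNA target was lower in all 4 depleted libraries than in any other. *PHF13* stood at 1804.0 and 1662.4 normalized counts in siNC against 524.2 and 558.3 in siPHF13. With TGFβ it stood at 1585.9 and 1709.5 in control-transfected and at 512.8 and 529.4 in depleted cells. Depletion left 31.2% of the siNC mean without TGFβ and 31.6% with it (limma, adjusted p = 1.52e-08 and 1.3e-08). Reads on the 13307 genes numbered between 39196214 and 46700806 per library. All 8 ductal epithelial markers on the list drawn up (*KRT7*, *KRT8*, *KRT18*, *KRT19*, *EPCAM*, *CDH1*, *MUC1* and *CLDN4*) were in the table. Their summed counts ranged from 186575.4 to 218010.8 over the 4 libraries without TGFβ and from 133186.8 to 163413.2 over the 4 with it. *KRT8*, *KRT18* and *KRT19* made up most of each sum, which can hide single markers. Without TGFβ the mean of *CDH1* fell from 431.3 in siNC to 169.6 in siPHF13 (limma, adjusted p = 0.0026). That of *EPCAM* rose from 157.6 to 273.3 (limma, adjusted p = 0.00292). With TGFβ *CDH1* stood at 119.4 in control-transfected and 116.4 in depleted cells, and *EPCAM* at 125.0 and 241.2.

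*CD69* had the widest range of fold over the groups among the 3 genes. It measured 1358.2 and 1294.7 normalized counts in siNC (1326.5 ± 44.9, mean ± SD, n = 2) and 2522.7 and 2609.5 in siNC + TGFβ (2566.1 ± 61.3). In the depleted cells it measured 226.8 and 218.0 in siPHF13 (222.4 ± 6.20) and 261.2 and 265.6 in siPHF13 + TGFβ (263.4 ± 3.11). No groups overlapped, and their order from low to high was siPHF13, siPHF13 + TGFβ, siNC, siNC + TGFβ. Both depleted groups lay close together and far below both control-transfected groups.

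*TSPAN18* measured 865.0 and 822.6 normalized counts in siNC (843.8 ± 30, n = 2) and 1018.8 and 838.3 in siNC + TGFβ (928.5 ± 128). After depletion it measured 195.9 and 189.4 in siPHF13 (192.7 ± 4.63) and 132.8 and 138.6 in siPHF13 + TGFβ (135.7 ± 4.11). The control-transfected groups overlapped each other, since the second siNC + TGFβ library lay between both siNC libraries. All 4 depleted libraries lay below these, and among them the siPHF13 + TGFβ libraries were the lower pair.

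*TPSG1* was highest in siNC. It measured 220.0 and 211.7 normalized counts in siNC (215.9 ± 5.87, n = 2) and 145.5 and 143.0 in siNC + TGFβ (144.3 ± 1.82). After depletion it measured 29.8 and 37.5 in siPHF13 (33.7 ± 5.41) and 21.6 and 25.0 in siPHF13 + TGFβ (23.3 ± 2.43). None of the groups overlapped, and TGFβ-treated libraries were the lower pair both in control-transfected and in depleted cells. The replicates of *TPSG1* were farthest apart in siPHF13, with a gap of 0.32 on the log2 scale, which is wider than for 84.8% of all genes. For *CD69* the gap was at most 0.07 in any group, and for *TSPAN18* it reached 0.28 in siNC + TGFβ.

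Compared per length of the canonical transcript (1676 nt for *CD69*, 4557 nt for *TSPAN18* and 1119 nt for *TPSG1*), the levels of *TSPAN18* and *TPSG1* in siNC lay close together. *CD69* stood at 791.5 normalized counts per kb in siNC, above 70.5% of the 12247 genes with a known length (92.0% of all genes). *TSPAN18* stood at 185.2 ± 6.58 (SD, n = 2) per kb and *TPSG1* at 192.9 ± 5.25, above 35.6% and 36.3% of the genes, and these differ by little more than their spread. With TGFβ, *CD69* rose to 1531.1 per kb, above 84.3% of the genes. After depletion *CD69* stood at 132.7 per kb, above 30.4% of the genes, while *TSPAN18* stood at 42.3 (17.2%) and *TPSG1* at 30.1 (14.6%). In siPHF13 + TGFβ the order of *CD69* (157.2 per kb), *TSPAN18* (29.8) and *TPSG1* (20.8) was the same, so that *CD69* after depletion remained below the level that either other gene had in siNC.

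Depletion of PHF13 without TGFβ left 16.8% of the siNC mean of *CD69*, 22.8% of that of *TSPAN18* and 15.6% of that of *TPSG1*. The corresponding differences of log2(normalized count + 1), the scale of all log2 values given here, were -2.57, -2.12 and -2.65. These differences chose the genes and are given with no test. In this comparison 18.4% of all 13307 genes were called (an adjusted p below 0.05 with a log2 difference over 0.58 in either direction), 10.4% as lower and 7.95% as higher. Both siPHF13 libraries lay below both siNC libraries for 38.8% of all genes and above them for 38.5%. The median difference of all genes was -0.00094.

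In TGFβ-treated cells depletion left 10.3% of the siNC + TGFβ mean of *CD69*, 14.6% of that of *TSPAN18* and 16.2% of that of *TPSG1*. The log2 differences were -3.28, -2.76 and -2.58, beside a median of 0.0034 over all genes. The factor by which a depleted library lay below a siNC + TGFβ library was between 9.50 and 9.99 for *CD69*, between 6.05 and 7.67 for *TSPAN18* and between 5.71 and 6.74 for *TPSG1*. Here 11.7% of all genes were called lower and 8.81% higher (20.5% in all), and both depleted libraries lay below both others for 36.1% and above them for 35.6%. Against untreated siNC cells, siPHF13 + TGFβ cells held 19.9% of the *CD69* mRNA, 16.1% of the *TSPAN18* mRNA and 10.8% of the *TPSG1* mRNA.

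Other genes fell as far as these. The 3 genes were chosen for large falls after depletion, so their high ranks follow from that choice and are no test. Of the 1354 called falls without TGFβ in genes whose counts averaged 20 or more, *TPSG1* was number 9 by log2 difference, *CD69* number 12 and *TSPAN18* number 48. *TPSG1* stood between *USP18* (-2.67) and *ETV7* (-2.64), *CD69* between *CMPK2* (-2.60) and *LMX1B* (-2.54), and *TSPAN18* between *IL15* (-2.14) and *ALS2CL* (-2.12). *USP18* and *CMPK2* are known as interferon-induced genes, and *IL15* encodes a cytokine that sustains lymphocytes. With TGFβ, of 1515 such falls, *CD69* was number 2, behind *PRRG4* (-3.32) and ahead of *DTX4* (-3.24). *TSPAN18* was number 8, between *DLL1* (-2.90), a Notch ligand, and *ETV7* (-2.74), and *TPSG1* was number 14, between *TRIM22* (-2.60) and *SLC17A7* (-2.50).

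The response to TGFβ was not used to choose the genes, although it shares libraries with the depletion comparisons. In siNC cells *CD69* passed the test and *TSPAN18* and *TPSG1* did not. *CD69* rose 1.93-fold, by 0.95 ± 0.098 on the log2 scale (SE, limma, adjusted p = 1.9e-05), with both siNC + TGFβ libraries above both siNC libraries. Of all genes, 4.79% were called with TGFβ, 3.27% as higher and 1.52% as lower, and 30% had both treated libraries above both others. *CD69* was number 211 of the 435 genes called higher, whose median rise was 0.93.

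*TSPAN18* differed by 0.13 ± 0.132 between siNC + TGFβ and siNC (limma, adjusted p = 0.574), and its libraries overlapped. Without the higher of the siNC + TGFβ libraries, replicate 1, the difference was -0.01. *TPSG1* was at 66.8% of its siNC mean, a difference of -0.58 ± 0.258 (limma, adjusted p = 0.158). Both treated libraries of *TPSG1* lay below both siNC libraries, as was so for 30.2% of all genes. A fit of only the 4 libraries compared gave an adjusted p of 0.0258 for *TPSG1*, within a range from 0.0258 to 0.455 over the alternatives tried.

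In siPHF13 cells 0 of the 3 genes were called by limma for the response to TGFβ, in which 1.35% of all genes were called, 1.13% higher and 0.218% lower. *CD69* differed by 0.24 ± 0.098 (limma, adjusted p = 0.261), with both siPHF13 + TGFβ libraries above both siPHF13 libraries, as for 20% of all genes. *TSPAN18* differed by -0.50 ± 0.132 (limma, adjusted p = 0.0608) and *TPSG1* by -0.51 ± 0.258 (limma, adjusted p = 0.417), each with both treated libraries below both others, as for 19.8% of all genes. At an unadjusted p under 0.05 there were 2 of the 3, *CD69* and *TSPAN18*, and no count model was run here. The difference between the response in siPHF13 cells and that in siNC cells was -0.71 for *CD69*, -0.63 for *TSPAN18* and 0.07 for *TPSG1*. It is the same number as the difference between both depletion effects, which chose the genes, and was given no test.

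**Figure D1:**
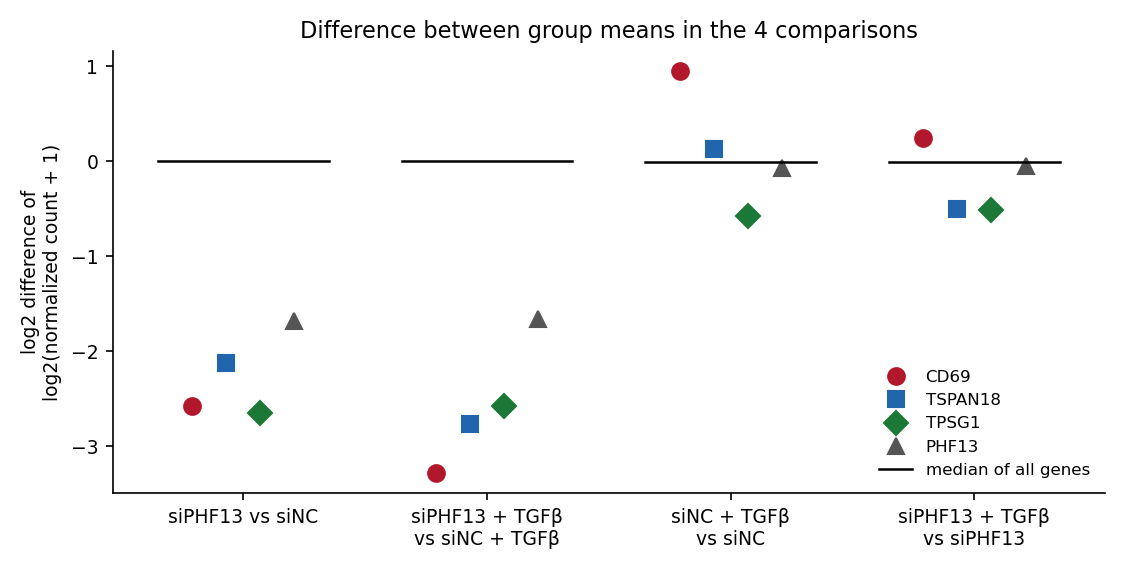
Difference between group means of log2(normalized count + 1) for CD69, TSPAN18, TPSG1 and the siRNA target PHF13 in 4 comparisons. Points are single genes and the black line is the median of all 13307 genes. The 3 genes lie between -3.28 and -2.12 in both depletion comparisons, below PHF13 itself, and from -0.58 to 0.95 in the TGFβ comparisons.

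Lymphocyte and mast cell genes were looked at beside *CD69* and *TPSG1*, since these genes are known from such cells. Of 12 lymphocyte markers 1 was in the table and the other 11 were not analysed here. This was *CD79A*, a part of the B cell receptor, with 0.948 to 2.7 normalized counts in siNC against 46.7 to 52.3 in siPHF13, and, with TGFβ, 4.31 to 10.3 in control-transfected against 64.5 to 70.2 in depleted cells. *CD79A* was lower in control-transfected than in depleted libraries, the reverse of *CD69*. It was called higher after depletion without and with TGFβ (limma, adjusted p = 5.1e-05 and 0.00053). It reached the minimum of 10 normalized counts in 2 libraries only through the depleted libraries, so that these calls were favoured by the filter. With TGFβ its mean was higher, like that of *CD69*, at 7.3 against 1.83 in siNC and 67.3 against 49.5 in siPHF13 cells. Neither of these differences of *CD79A* was called. The part of *CD79A* in the result for *CD69* was not tested.

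Of 11 mast cell markers 3 were in the table, *KIT* (a receptor tyrosine kinase), *GATA2* (a transcription factor) and *TPSD1* (tryptase delta), and the other 8 were not analysed here. Their summed counts ranged from 1217.8 to 1233.5 in siNC against 936.1 to 975.8 in siPHF13, and, with TGFβ, from 994.6 to 1004.8 in control-transfected against 762.3 to 910.0 in depleted cells. The sum was highest in siNC and lowest in siPHF13 + TGFβ, as for *TPSG1*, but over a much narrower range, and its part in the result for *TPSG1* was not tested. *GATA2* made up most of it (mean 986.9 in siNC). After depletion without TGFβ *GATA2* differed by -0.36 (limma, adjusted p = 0.0104) and *KIT* by -0.38 (limma, adjusted p = 0.131). With TGFβ *GATA2* differed by -0.32 (limma, adjusted p = 0.0195), and the mean of *KIT* was 111.4 in control-transfected and 111.3 in depleted cells. None of the 3 was called in either comparison. *TPSD1*, whose reads can be shared with other tryptase genes and whose count is uncertain, stood at 14 in siNC and 17.3 in siPHF13 (log2 difference 0.35, limma, adjusted p = 0.621).

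The genes around each locus were compared in the same way. *TPSG1* and *CACNA1H*, which encodes a T-type calcium channel subunit, lie on opposite strands and end in each other, with 121 bp of exon shared. *CACNA1H* measured 2203.3 and 2394.0 normalized counts in siNC and 967.8 and 1061.4 in siPHF13, a log2 difference of -1.18 ± 0.101 (SE, limma, adjusted p = 6.82e-07), and with TGFβ it fell by 1.24 ± 0.101 (limma, adjusted p = 3.78e-07). *TPSG1* was thus lowered together with its overlapping neighbour, though it was lowered by more. Without TGFβ its count was 9.99% and 8.84% of that of *CACNA1H* in siNC against 3.08% and 3.53% in siPHF13. With TGFβ it was 6.20% and 6.85% in control-transfected against 2.11% and 2.92% in depleted cells.

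*TSPAN18* shares 76 bp of exon with *TP53I11*, a gene on the opposite strand that is known to be induced by p53. *TP53I11* measured 4635.2 and 4558.2 normalized counts in siNC and 1931.6 and 2306.3 in siPHF13, a log2 difference of -1.12 ± 0.0958 (SE, limma, adjusted p = 6.75e-07). With TGFβ it fell by 0.95 ± 0.0958 (limma, adjusted p = 2.78e-06). The count of *TSPAN18* was 18.7% and 18.0% of that of *TP53I11* in siNC against 10.1% and 8.21% in siPHF13. With TGFβ it was 26.2% and 25.7% in control-transfected against 6.94% and 7.79% in depleted cells. For both overlapping pairs this proportion was lower in the depleted libraries. *TSPAN18* and *TPSG1* were chosen for their large falls, so that the lower proportion tells nothing about shared reads, which were not tested. The strand setting of the counting is not given in the sources used here, so that reads from the shared bases cannot be assigned to one gene of a pair.

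Of 32 protein-coding neighbours listed around the 3 genes, 20 were in the table. Without TGFβ, 3 of these were called lower after depletion (*TP53I11*, *CACNA1H* and *SOX8*), 1 was called higher (*KLRG1*) and 16 were not called, beside 10.4% of all genes called lower and 7.95% called higher. With TGFβ the same 3 were called lower, *KLRG1* and *SSTR5* were called higher and 15 were not called, beside 11.7% of all genes called lower and 8.81% called higher. With TGFβ neither edgeR nor DESeq2 called *SSTR5*, and DESeq2 also called *BAIAP3* lower. With 20 neighbours these counts lie near the shares over all genes. *SOX8*, which encodes a transcription factor and lies 234.7 kb from *TPSG1*, fell by 1.39 ± 0.292 (limma, adjusted p = 0.00145). Nearer to *TPSG1* were, among others, *TPSD1* at 30.8 kb, *BAIAP3* at 108.4 kb (-0.55) and *SSTR5* at 140.2 kb (0.31), none of these called without TGFβ.

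*CD69* lies in a cluster of lectin receptor genes, and 0 of its 4 neighbours in the table were called lower by limma in either comparison, also 0 at an unadjusted p under 0.05 and, with TGFβ, by edgeR and DESeq2. With 10.4% and 11.7% of all genes called lower, a count of 0 among 4 does not set this locus apart. Without TGFβ the differences were -0.21 for *CLEC2D* at 52.9 kb, 0.15 for *KLRF1* at 66.6 kb and 0.28 for *CLEC2B* at 91.5 kb. *KLRG1*, which encodes an inhibitory lectin receptor of lymphocytes and lies 741.7 kb away, rose by 1.35 ± 0.396 (limma, adjusted p = 0.0123). Beyond *TP53I11*, the gene of the table nearest to *TSPAN18* was *CD82* at 106.1 kb, itself a tetraspanin. *CD82* measured a mean of 3905.2 normalized counts in siNC and 2796.3 in siPHF13, a difference of -0.48 ± 0.0802 (limma, adjusted p = 0.000246) that lies inside the fold threshold.

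Relatives and partners of the 3 genes were taken from lists, and their calls are set beside the shares over all genes. Without TGFβ 10.4% of all genes were called lower and 7.95% higher, and with TGFβ 11.7% lower and 8.81% higher. Of 6 other lectin receptors of the *CD69* family in the table, 0 were called lower by limma and 1, *KLRG1*, was called higher after depletion without TGFβ, with a median difference of -0.02, a list too short to set against those shares. *OLR1*, the receptor for oxidized low-density lipoprotein, measured a mean of 49.8 normalized counts in siNC and 24.2 in siPHF13 (limma, adjusted p = 0.0673) and 29.1 against 33.1 with TGFβ. At an unadjusted p under 0.05, 1 was lower without TGFβ. With TGFβ the count was again 0 lower and 1 higher, with a median of 0.09, and it was 0 lower at an unadjusted p under 0.05 and by edgeR and DESeq2.

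Among 23 other tetraspanins, 2 were called lower and 1 higher after depletion without TGFβ, with a median of 0.13, and 2 lower and 1 higher with TGFβ, with a median of 0.11. These shares are close to those of all genes. *TSPAN33* fell from a mean of 134.1 normalized counts in siNC to 24.2 in siPHF13, a log2 difference of -2.48 ± 0.314 (limma, adjusted p = 2.34e-05), which is further than *TSPAN18* itself. *TSPAN13*, with a mean of 4887.3 in siNC, fell by 0.71 ± 0.0789 (limma, adjusted p = 7.71e-06). *TSPAN11* was the one called higher, from 8.70 to 25.7 normalized counts (limma, adjusted p = 0.0447). The widely used exosome markers *CD9* and *CD63* stood at differences of 0.44 and 0.29, inside the fold threshold, and *CD81* at 0.06.

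The store-operated calcium entry genes, of which *ORAI1* encodes the known binding partner of TSPAN18, were all in the table. Without TGFβ 0 of 5 were called by limma, with a median of -0.26, although *ORAI1* (-0.49, adjusted p = 0.000365) and *STIM1* (-0.32, adjusted p = 0.00263) had small adjusted p-values inside the fold threshold. At an unadjusted p under 0.05, 3 of them were lower and 2 higher. With TGFβ the median was -0.33, *ORAI1* stood at -0.52 and *STIM1* at -0.40, and *ORAI3* was called higher (0.85 ± 0.102, limma, adjusted p = 1.23e-05).

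A list of other serine proteases held 12 in the table, namely *TPSD1*, *ST14* and genes named *PRSS* or *TMPRSS*. Without TGFβ 4 of these were called higher (*PRSS22*, *PRSS23*, *PRSS27* and *PRSS33*) and 1 lower (*TMPRSS2*), with a median of 0.38. Of all genes, 7.95% were called higher and 10.4% lower. With TGFβ 5 were called higher and 1 lower, *TMPRSS5* being the addition, with a median of 0.44, where 8.81% of all genes were called higher and 11.7% lower. *PRSS22*, the gene of a tryptase of epithelia, rose from a mean of 1170.5 normalized counts in siNC to 3337.7 in siPHF13, by 1.51 ± 0.0871 (limma, adjusted p = 1.98e-08), and *PRSS33* rose from 4.53 to 65.9 (limma, adjusted p = 0.000307). *TMPRSS2* fell from 406.1 to 174.2, by 1.24 ± 0.187 (limma, adjusted p = 0.000103). Of 7 protease inhibitors, *SPINT1*, an inhibitor of membrane-anchored serine proteases, was called higher without TGFβ (1.07 ± 0.154, limma, adjusted p = 7.5e-05) and with it (0.67 ± 0.154, limma, adjusted p = 0.00259), and 0 were called lower in either comparison. At an unadjusted p under 0.05, 2 inhibitors were lower without TGFβ and 4 with it, where edgeR and DESeq2 called 0. The median over the inhibitors was 0.16 without TGFβ and -0.25 with it.

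Of 18 listed partners of *CD69* and genes of the S1P axis, 14 were in the table, and *S1PR1* was not among these 14. Without TGFβ *S1PR3* was called lower (-0.73 ± 0.129, limma, adjusted p = 0.000388) and *SPNS2*, the S1P exporter, was called higher, from a mean of 981.5 to 3432.6 normalized counts (1.81 ± 0.0853, limma, adjusted p = 3.62e-09). With TGFβ 4 were called lower, namely *S1PR2* (-1.24), *S1PR3* (-0.74), *SPHK1* (-0.62), the kinase that makes S1P, and *MYL9* (-0.81), whose protein is a known ligand of CD69. *SPNS2* was again higher (2.14 ± 0.0853, limma, adjusted p = 9.31e-10). The medians of the list were -0.09 and -0.11. Of all genes, 10.4% were called lower and 7.95% higher without TGFβ, and 11.7% lower and 8.81% higher with it. *LGALS1*, whose protein galectin-1 binds CD69, stood at -0.08, and *SLC7A5* and *SLC3A2*, which encode the amino acid transporter that CD69 associates with, stood at -0.05 and -0.02 without TGFβ.

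*CD69* is itself an early activation gene, so that 21 other genes of this kind were set beside it. Without TGFβ 5 were called lower (*EGR3*, *FOSL1*, *NFKBIA*, *TNFAIP3* and *BTG2*) and 2 higher (*JUN* and *FOSB*), with a median of -0.23, where 10.4% of all genes were called lower and 7.95% higher. With TGFβ 4 were called lower and 1 higher, with a median of -0.32, where 11.7% of all genes were called lower and 8.81% higher. *NFKBIA* and *TNFAIP3*, both feedback inhibitors of NF-κB that NF-κB induces, had log2 differences of -1.53 ± 0.110 and -1.5 ± 0.101 (limma, adjusted p = 1.42e-07 and 8.13e-08). *EGR3* fell from a mean of 40.2 to 10.4 normalized counts, a log2 difference of -1.85 ± 0.374 (limma, adjusted p = 0.00108). *JUN*, a part of AP-1, rose by 0.84 ± 0.0758 (limma, adjusted p = 1.14e-06).

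**Figure D2:**
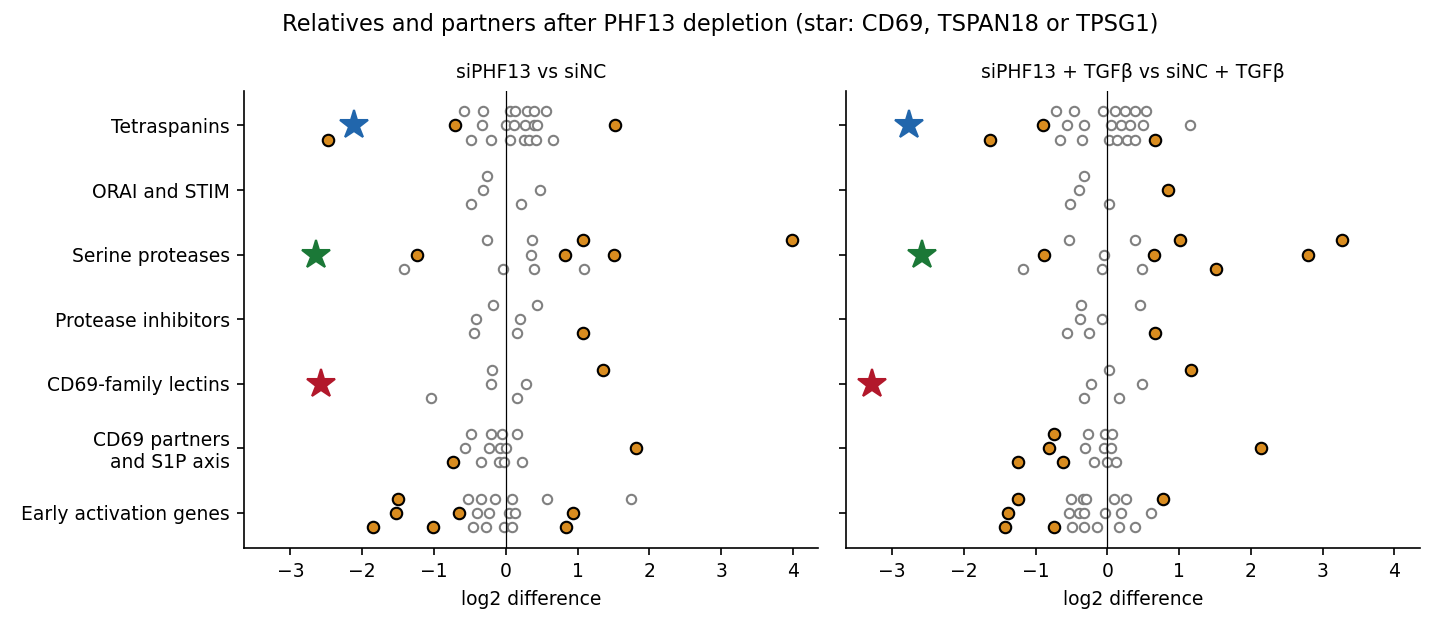
Log2 difference after PHF13 depletion for the relatives and partners of CD69, TSPAN18 and TPSG1, without TGFβ (left) and with TGFβ (right). Small circles are the other genes of a list, filled where called, and stars are CD69, TSPAN18 and TPSG1. The star is the lowest point of its family in both panels except that TSPAN33 lies further down than TSPAN18 without TGFβ. The starred genes were chosen for their falls after depletion, so their low place follows from that choice.

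The genes whose pattern over the 8 libraries was most like that of each gene were not its relatives. The measure was the Pearson correlation of log2(normalized count + 1) over the 8 libraries among the 12680 genes whose counts averaged 20 or more, given as a description, since the libraries share their conditions. For *CD69* the closest were *ARPP19* (r = 0.999), *KIF13A* (0.998), *USB1* (0.997), *B3GNT2* (0.997) and *MSANTD4* (0.997). These moved far less than *CD69*: *ARPP19* differed by -0.29 after depletion and by 0.09 with TGFβ in siNC cells.

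For *TSPAN18* the closest were *UBXN4* (r = 0.998), *PGM2* (0.998), *CHMP7* (0.997), *USP8* (0.997) and *PCYOX1L* (0.997), of which *CHMP7* had the largest differences after depletion, -1.15 without TGFβ and -1.48 with it. For *TPSG1* the closest were *NFE2L3* (r = 0.999), *LTV1* (0.998), *BIRC3* (0.998), *APOL1* (0.998) and *PRPF6* (0.997). *BIRC3*, which encodes an inhibitor of apoptosis and is induced by NF-κB, had a mean of 25519.3 normalized counts and differed by -1.71 after depletion without TGFβ and by -1.63 with it. *APOL1*, an interferon-induced gene, differed by -1.59 and -1.51.

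High correlations were common. The 3 genes were chosen for their falls in the same depleted libraries, so a high r among them follows from that choice. Each r with another gene also rests in part on the values that chose them. Of the 12680 genes, 6.75% reached r = 0.95 with *CD69*, 7.79% with *TSPAN18* and 6.96% with *TPSG1*. Among the 3 genes r was 0.960 between *CD69* and *TSPAN18*, 0.978 between *TSPAN18* and *TPSG1* and 0.908 between *CD69* and *TPSG1*, whose siNC + TGFβ libraries lay on opposite sides of siNC. By this measure *TSPAN18* was number 285 among the genes nearest to *TPSG1* and number 618 among those nearest to *CD69*.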

How the data were processed

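Per the labels and the study's methods, the authors trimmed paired-end mRNA-seq reads with Trim Galore 0.4.1, mapped them to hg19 with STAR 2.7.0, counted exon reads per gene with htseq-count 0.12.4 and normalized the counts with DESeq2, whose version is not given in the sources used here, nor are the annotation release and the strand setting. The submitters' processing notes also name deepTools 3.5.0. The deposited values are a signal per library and gene (the read count over the size factor that DESeq2 gave the library), and 3 further tables hold the authors' own group means, fold changes and p-values, which were not used.

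The columns read as siNC carry the name NT, which is not in the sample titles and was taken as the control siRNA without TGFβ, the names of the other 3 groups being matched to the titles or the study's own abbreviations.

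The comparisons came from one limma 3.58.1 fit (R 4.3.3) with a trended prior variance on log2(normalized count + 1) over all 8 libraries, tested two-sided, with Benjamini-Hochberg adjustment over 13307 genes. A gene was called where the adjusted p was below 0.05 and the log2 difference exceeded 0.58 in either direction, the thresholds of the study. All genes passed a filter of 10 normalized counts reached by 2 or more libraries. Values are whole multiples of one step per library (100% within 0.01 of a whole read), which gave the reads on genes and let edgeR 4.0.16 and DESeq2 1.42.0 run on 6 libraries. The step of siPHF13 replicate 1 was 0.995, too near 1, so the siPHF13 group was left out there. Procedures were tested on simulated data.

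*CD69*, *TSPAN18* and *TPSG1* and the gene lists were chosen with earlier results of these data known. Named genes are these 3, PHF13, the 5 of closest pattern, the called list genes of largest difference after depletion and known partners, the neighbours, and the genes next in rank. *PRSS23*, *CD9*, *CD63*, *CD81*, *STIM1*, *SPHK1*, *OLR1*, *FOSB* and *FOSL1* are list genes beyond that number, named with their values seen. One neighbour is not reported by name here. The replicate numbers did not pair the libraries. Gene positions and transcript lengths are from GENCODE v44lift37. The promoter window is from RefSeq, whose table matched 1 of the 3 genes. Alternatives were another pseudocount of 5, no minimum, TMM rescaling, only the compared libraries, a replicate block, the count models, no fold threshold and each library left out.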

Additional observations from a re-analysis of the deposited data

Results flagged for a closer look

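Among 60 genes named beside *CD69*, *TSPAN18* and *TPSG1*, the effect of PHF13 depletion differed between cells without and with TGFβ for 1, *KRT19*, by a test of the difference itself. *KRT19*, a keratin of ductal epithelium, differed by 0.25 on the log2 scale after depletion without TGFβ and by 0.76 with it, a difference of 0.50 (limma, adjusted p = 0.0255). Over all genes, 55 of 13307 (0.413%) passed this test.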

How the results depend on the processing

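Under the alternatives tried, 82 of 84 values for the response of the 3 genes to TGFβ, 41 of 42 of their depletion differences and 56 of 60 counts of called genes kept their direction and side of the threshold, or, for values with no test, moved by less than 1 SD between replicates and, for counts, stayed within 1.5 times. Not all alternatives could change a result, so these shares overstate the agreement. All genes passed the minimum, so the fit without it repeated the main fit. For the response to TGFβ, 3 kinds could move only the adjusted p and not the log2 difference. These were the replicate block, the fit of only the compared libraries and leaving out a library of another group. *TSPAN18* reversed in siNC cells to -0.01 (limma, adjusted p = 0.987) without siNC + TGFβ replicate 1, within a range of -0.01 to 0.27 over the libraries left out. *TPSG1* in siNC cells passed the adjusted p (-0.58, limma, adjusted p = 0.0258) in a fit of only the libraries compared, beside a range of 0.0258 to 0.455 over its alternatives. The difference of *TPSG1* after depletion with TGFβ was -2.40 with a pseudocount of 5. Without a fold threshold, genes with an adjusted p under 0.05 numbered 2114 for TGFβ in siNC cells, 409 for TGFβ in siPHF13 cells, 6308 for depletion without TGFβ and 6712 with it. The cause was not tested for *TSPAN18* and *TPSG1*, while dropping the fold threshold admits smaller changes by construction.

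Same-numbered libraries deviated together with correlations from -0.25 to 0.27 over 6 pairs of groups, so the numbers do not pair them. With a replicate block the counts of called genes were 630, 171, 2438 and 2711, beside 637, 179, 2448 and 2726 without it, in the order just given, and the block changed no call of the 3 genes. Leaving out one library gave 488 to 690, 153 to 222, 2218 to 2490 and 2559 to 2829 called genes, where a group of 1 library is assumed to vary like the others. The rise of *CD69* with TGFβ in siNC cells passed in every alternative run (log2 difference 0.92 to 0.99 with a library left out, adjusted p from 2.09e-19 to 0.00122).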
